A study of Mus musculus with 2 samples.

Results

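DNA replication and mitosis genes were examined in ureters of E14.5 mouse embryos labelled as double knockouts of Tbx2 and Tbx3, T-box transcription factors of the tissue layer that surrounds the ureteric epithelium. The set comprised 36 genes chosen by name, of 32103 genes with a probe on the arrays (accessions without a gene name counted singly), of which 17 act in or before S phase and 19 act in mitosis. Probes were assigned to them by the RefSeq accession printed on the array. All 36 were found, with 46 probes, among 39429 probes present on both arrays. After dim probes were left out, 34 of the 36 were among the 20629 genes tested.

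The ureters labelled knockout carried Tbx18(cre/+) together with Tbx2(fl/fl) and Tbx3(fl/fl), so that Cre recombinase made from the Tbx18 locus recombines the floxed alleles of both genes. The controls were Tbx18(+/+), without Cre, with Tbx2(fl/?) and Tbx3(fl/?), and their other allele of Tbx2 and of Tbx3 is left unspecified by the label. Cre and the altered Tbx18 allele were thus present only in the labelled knockouts. Their effects cannot be told apart from those of losing Tbx2 and Tbx3. All embryos were of the NMRI strain. Each of 2 two-colour arrays held 1 labelled knockout and 1 control RNA, a female pair with the knockout in AlexaFluor647 and a male pair with the knockout in AlexaFluor555, so an effect of sex and one of dye orientation cannot be told apart. Tbx18 marks the mesenchyme around the ureteric epithelium. The RNA came from ureters and not from sorted cells, so it also held other cells, such as the epithelium. The sources used here do not say how many embryos went into each RNA, and p-values measure only the spread between these 2 pairs, mostly as pooled across genes.

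Proliferating cells copy their DNA in S phase and separate the copies in mitosis. The MCM helicase is loaded at replication origins by Cdc6 and Cdt1, the cyclin E and cyclin A kinases start synthesis, and ribonucleotide reductase and thymidylate synthase supply nucleotides. Cyclin B with CDK1, the Aurora and Polo kinases, the spindle checkpoint and the anaphase-promoting complex then carry the cell through division. Genes of the first group are transcribed mainly under E2F factors in late G1 and S phase, and genes of the second mainly in G2 and mitosis through promoter elements that include the cell cycle homology region (CHR). Tbx2 and Tbx3 are known as repressors of CDK inhibitor genes in other cell types, and the comparison asks whether transcripts of the cycling machinery differ between the labelled knockout and control ureters.

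The promoters of the members carry these elements unevenly. In the RefSeq promoter table (GRCm38.p6), which held 30 of the 36 members, the 250 bases before any start site listed for a gene were searched on both strands. An E2F core (TTCCCGC or TTGGCGC or TTGCCGC or TTCGCGC) was present in 7 of 14 S-phase genes and 3 of 16 mitosis genes, against 9.01% of 27025 genes in the table. A CHR (TTTGAA or TTCGAA) was present in 3 of 14 S-phase genes and 8 of 16 mitosis genes, against 19.6% of all genes. The CCAAT box (CCAAT), bound by NF-Y, was present in 8 of 14 S-phase genes and 15 of 16 mitosis genes, against 37.5% of all genes. In the larger lists of other replication and other mitosis genes the CCAAT shares were close, 58.8% and 61.5%, whereas the E2F core was in 41.2% and 17.9% and the CHR in 17.6% and 38.5%. A TTGGCGC core and a CCAAT box on the other strand can share bases, and both are then counted. These matches describe sequence and not binding. Windows of 30 bases are shown for 4 S-phase and 5 mitosis genes as examples of the matches, read in the direction of the gene, with the motif in capitals (reverse-strand matches appear as their complement). The first 4 hold an E2F core and the last 5 a CHR. Neither element marks a class alone, and the Cdk1 promoter holds 2 E2F cores as well as its CHR matches.
Mcm5 (chr8:75109349-75109378, plus strand): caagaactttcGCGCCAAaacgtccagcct
Mcm6 (chr1:128359730-128359759, minus strand): ggacgggtttgGCGCGAAgtagctcagctc
Cdc6 (chr11:98908002-98908031, plus strand): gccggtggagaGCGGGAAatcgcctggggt
Rrm1 (chr7:102441617-102441646, plus strand): aggagaactcgTTCCCGCcaggtccgcttt
Cdk1 (chr10:69352913-69352942, minus strand): ctttaccgcggcgagTTTGAAactgctggc
Cdc20 (chr4:118437344-118437373, minus strand): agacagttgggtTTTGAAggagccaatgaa
Ube2c (chr2:164769888-164769917, plus strand): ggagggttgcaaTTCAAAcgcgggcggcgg
Kif11 (chr19:37376351-37376380, plus strand): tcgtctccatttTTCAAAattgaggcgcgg
Top2a (chr11:99024195-99024224, minus strand): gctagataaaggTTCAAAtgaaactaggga

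The targeted genes check the labels. For Tbx3 the log2 ratio of labelled knockout over control was -1.09 ± 0.10 (SD, n = 2 pairs; limma, adjusted p = 0.000862). Tbx2 was higher instead, at 0.86 ± 0.12 (limma, adjusted p = 0.00236), opposite to its label. Where these probes lie relative to the deleted exons was not examined, and a probe outside them checks nothing. Each direction given here thus refers to the RNAs labelled knockout. Tbx18, which carries the Cre, was at 0.15 ± 0.0011 (limma, adjusted p = 0.379). Between 64.3% and 71.6% of spots were well above background in each channel, and 0 spots were saturated. All 12 urothelial and all 9 ureteric mesenchyme markers listed for the tissue passed the filter on dim probes. So did all 9 neural, 7 endothelial, 6 immune, 7 erythroid and 6 nephron lineage markers, and 9 of 10 smooth muscle markers. Passing the filter is therefore not particular to cells of the ureter wall.

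No member of the set was called different between the labelled knockout and control ureters. With limma and Benjamini-Hochberg adjustment over all 20629 genes, 0 of 34 members had an adjusted p under 0.05, against 3.68% of all genes tested (1.87% higher and 1.81% lower). At an unadjusted p under 0.05, 0 members passed, against 14.1% of all genes. Adjusted p-values of the members ran from 0.381 (Cdt1) to 0.992 (Ccna2). The members lay between -0.18 (Cdc6) and 0.13 (Cenpf) on the log2 scale, with a median of -0.015 and quartiles of -0.079 and 0.045. The median of all genes tested was -0.0021, with quartiles of -0.059 and 0.058, and that of the 14515 genes within the members' range of mean intensity was -0.0054. The middle 50% of members spanned 0.12 and that of all genes 0.12. A p that misses the threshold does not show that levels were equal, so moderated 95% intervals are given. They rest mostly on the spread pooled across genes (1 residual and 5.24 prior degrees of freedom). They bound the difference only as far as that pooled spread holds for each gene. For 34 of 34 members the interval lay within a 1.5-fold change in either direction (0.58 on the log2 scale), as it did for 95.6% of all genes. The lowest bound was -0.42 (Cdk1) and the highest 0.31 (Ube2c). In whole-tissue RNA, fewer cycling cells and less transcript per cycling cell cannot be told apart.

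**Figure D1:**
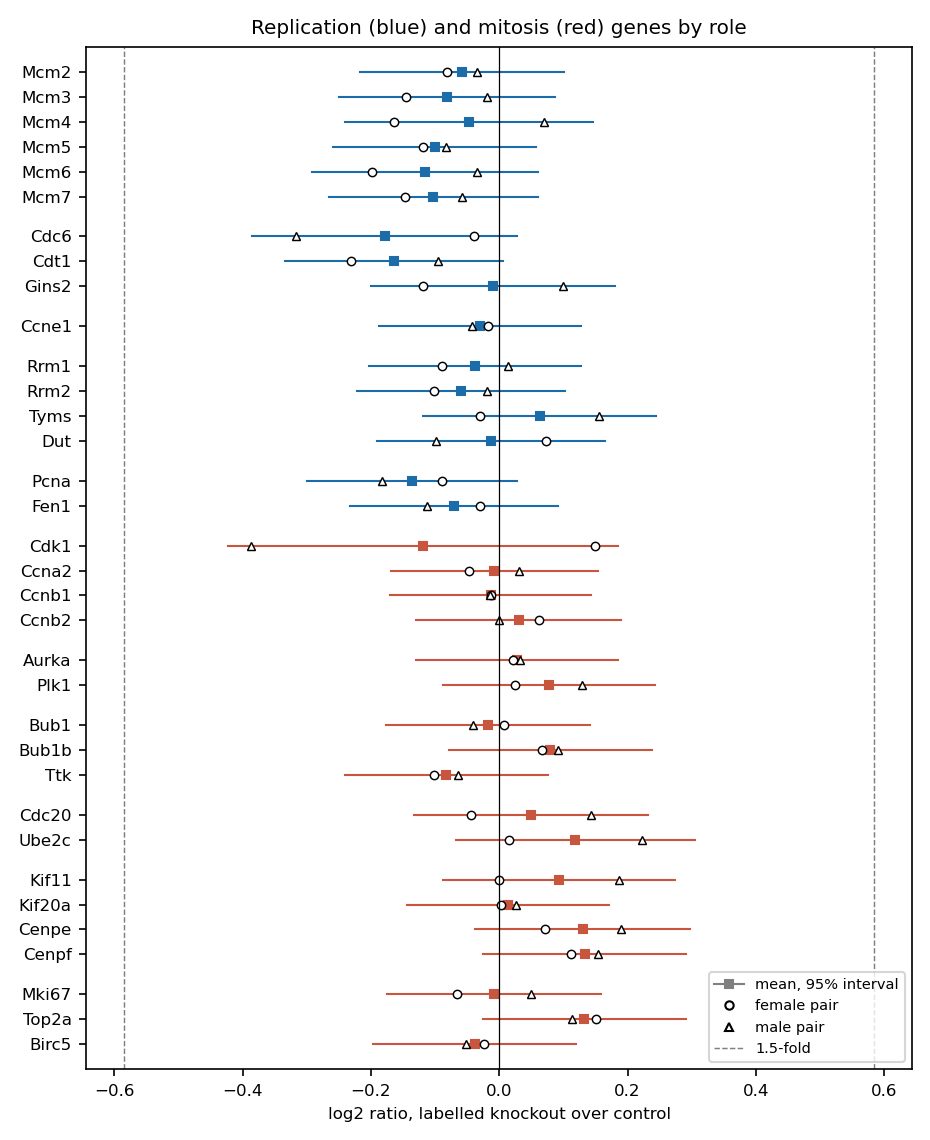
Log2 ratio of labelled knockout over control for the 34 members tested, grouped by role, with S-phase genes in blue and mitosis genes in red. Squares and lines are means and moderated 95% intervals, circles the female pair and triangles the male pair, and dashed lines mark a 1.5-fold change, which no interval reaches.

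Within this narrow range the medians of the 2 phases lay on opposite sides of 0. Of 16 S-phase genes tested, 15 had a mean ratio below 0, against 51.1% of all genes, and 11 were below 0 in both pairs, against 28.2% of all genes. None was above 0 in both pairs. Of 18 mitosis genes, 7 had a mean below 0 (38.9%), closer to the share of all genes, and 11 above it. In both pairs 8 were above 0, against 27.6% of all genes, and 3 were below 0. These counts rest on the brightest probe of each gene. A dimmer probe was above 0 in males for Cdc6 (0.054) and Ccne1 (0.10), and below 0 in females for Ube2c (-0.034). The other probes of Ccnb1 and a further probe of Birc5 were above 0 in both pairs, and a dimmer Cdk1 probe was below 0 in both. With each array centred on its median in place of loess, 12 of 16 S-phase genes were below 0 and 16 of 18 mitosis genes above it, with Dut, Gins2 and Ccne1 among those that changed sign. Under that centring the median of all genes tested was itself above 0, at 0.024, which raises counts above 0 for any list. With loess the median log2 ratio was -0.066 for S-phase genes and 0.029 for mitosis genes. The S-phase median minus the mitosis median was -0.095, and was -0.11 in females and -0.080 in males. No test is given for this difference, since 2 pairs are too few for an exact test and genes of one programme are not independent replicates. The probes of the phases were about equally bright, with a median log2 intensity of 14.47 for S-phase and 14.55 for mitosis genes. The 3335 genes between the quartiles of the S-phase intensities had a median ratio of -0.0076 (-0.031 in females and 0.016 in males), and the 3612 between those of the mitosis intensities -0.0063 (-0.027 and 0.013). Mean ratios were below 0 for 55.4% of the former genes and 54.4% of the latter. The S-phase median lay below that of genes of like brightness in both pairs (-0.095 in females and -0.039 in males), and the mitosis median above it (0.012 and 0.041).

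**Figure D2:**
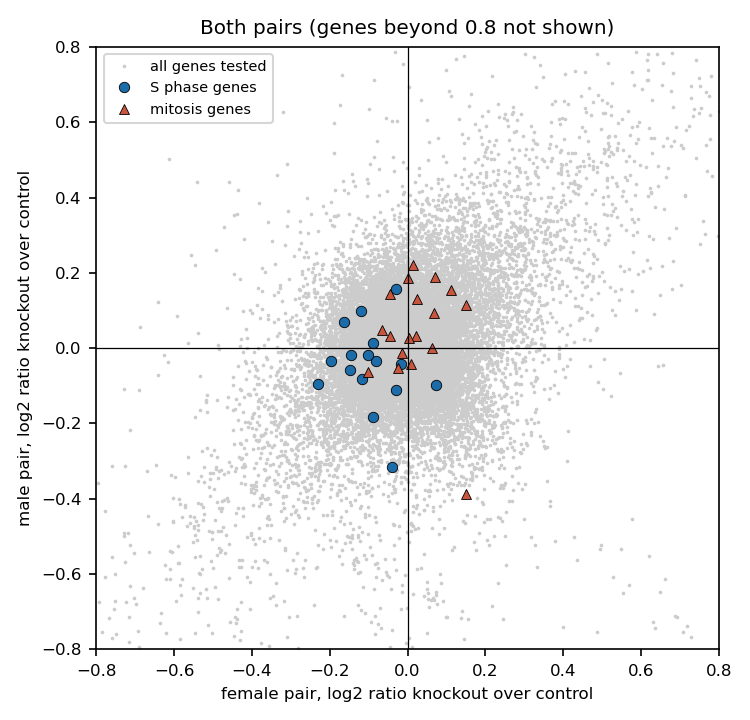
Log2 ratio of labelled knockout over control in the female pair (horizontal axis) and the male pair (vertical axis) for all genes tested (grey) and for S-phase (blue circles) and mitosis genes (red triangles). The members sit in the dense centre of the distribution; 11 S-phase genes lie below 0 on both axes and 8 mitosis genes above 0 on both, and Cdk1 stands at 0.15 and -0.39.

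The 6 subunits of the MCM2-7 helicase, which unwinds DNA at the fork, all had means below 0, with a median of -0.091. The largest of the 6 values was that of Mcm6. Its normalized log2 intensity was 16.08 in the female knockout and 16.27 in the female control, and 16.17 in the male knockout and 16.20 in the male control. In each pair the knockout RNA was the lower one. The Mcm6 ratio was -0.12 ± 0.12 (SD, n = 2 pairs; 95% interval -0.29 to 0.060; limma, adjusted p = 0.621). Mcm7 was at 16.08 and 16.23 in the female pair and at 16.11 and 16.16 in the male pair, a ratio of -0.10 ± 0.063. Mcm5 was at 14.91 and 15.02 and at 14.88 and 14.96, a ratio of -0.10 ± 0.025. For each of these subunits the knockout values were the lower ones in both pairs, by no more than 0.20. Mcm3 had a ratio of -0.082 ± 0.089 and Mcm2 of -0.058 ± 0.034, both below 0 in both pairs. Mcm4 did not share this, with -0.16 in females and 0.070 in males.

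Among genes that load or fire origins, Cdc6 and Cdt1 had the lowest ratios of the whole set. Cdt1, which brings the helicase to origins, was at a log2 intensity of 13.43 in the female knockout and 13.66 in the female control, and at 13.33 and 13.42 in the male pair. The knockout was lower in each pair, but the female knockout and the male control overlapped at about the same level. Its ratio was -0.16 ± 0.10 (SD, n = 2 pairs; 95% interval -0.33 to 0.0067; adjusted p = 0.381 with limma), the lowest adjusted p in the set. Cdc6, an ATPase of the same loading step, was at 11.09 and 11.13 in the female pair and at 10.96 and 11.27 in the male pair. Nearly all of its mean of -0.18 ± 0.20 came from the male pair, at -0.32 against -0.040 in the female pair. A dimmer Cdc6 probe gave the other order, -0.20 in females and 0.054 in males. The size of the Cdc6 value therefore differed between pairs and between probes. Gins2, a subunit of the GINS complex that activates the helicase, was at -0.12 and 0.10 in the 2 pairs, with a mean of -0.0098. Cyclin E1 (Ccne1), which drives entry into S phase, had a ratio of -0.030 ± 0.018 with its brightest probe. A dimmer Ccne1 probe gave -0.10 in females and 0.10 in males, with a mean of -0.00016. The single probe for cyclin E2 (Ccne2) was not well above background in any of the 4 RNAs and was not tested.

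The sliding clamp Pcna, which tethers DNA polymerases, was at a log2 intensity of 16.05 in the female knockout and 16.14 in its control, and at 15.99 and 16.18 in the male pair. Within the pairs the knockout was lower by 0.090 and 0.18. The Pcna ratio of -0.14 ± 0.065 (SD, n = 2 pairs; 95% interval -0.30 to 0.028) did not pass (limma, adjusted p = 0.478). The flap nuclease Fen1, which processes Okazaki fragments, had a ratio of -0.071 ± 0.059 and was below 0 in both pairs. Genes of nucleotide supply were closer to 0. The ribonucleotide reductase subunits Rrm1 and Rrm2 had ratios of -0.038 ± 0.073 and -0.060 ± 0.058. Dut, which removes dUTP, was at 0.073 in females and -0.098 in males. Thymidylate synthase (Tyms) was the S-phase gene with a mean above 0, at 0.063 ± 0.13, and its pairs stood at -0.030 and 0.16.

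**Figure D3:**
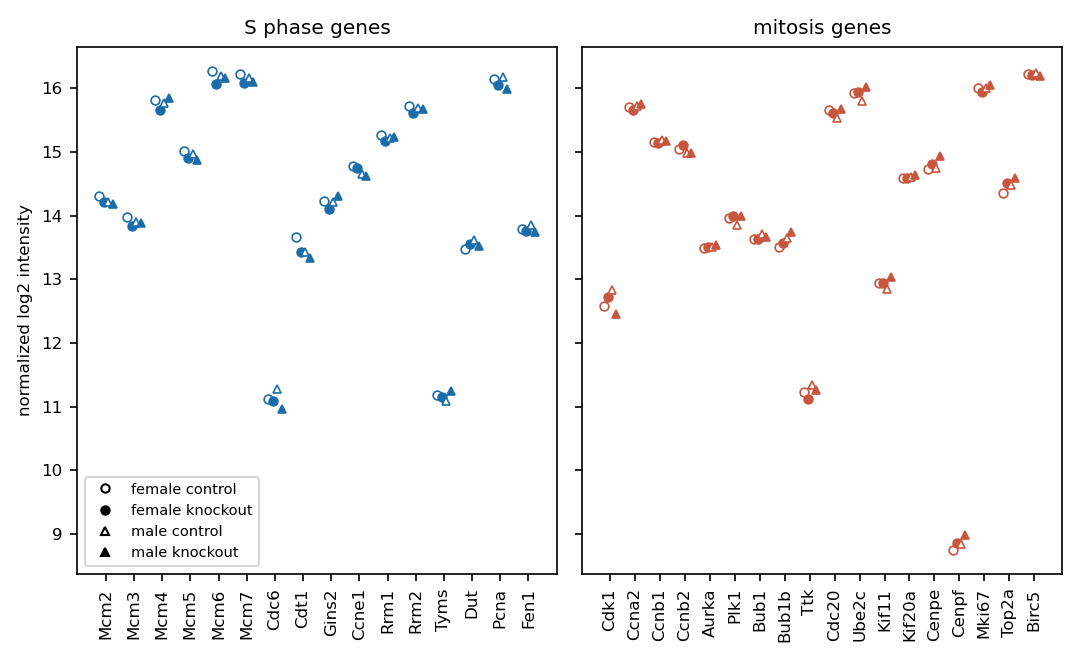
Normalized log2 intensity of each member in the 4 RNAs, with circles for the female and triangles for the male pair, open for control and filled for knockout. Within each gene the 4 values lie close together, with the widest spread for Cdk1 (12.45 to 12.84); heights of different genes come from different probes and are not compared.

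Cdk1, the kinase that drives mitosis, differed most between the 2 pairs. Its brightest probe was at a log2 intensity of 12.73 in the female knockout and 12.58 in the female control, and at 12.45 and 12.84 in the male pair. The knockout was thus the higher RNA in the female pair (0.15) and the lower one in the male pair (-0.39), and the mean of -0.12 ± 0.38 had the widest interval of the set (-0.42 to 0.18). The other Cdk1 probe that passed the filter, a much dimmer one, gave -0.027 and -0.079, and another, which was too dim to be kept, gave 0.14 and -0.18, the same signs as the brightest. The cyclins that partner with Cdk1 differed less between pairs. Cyclin A2 (Ccna2) had a ratio of -0.0076 ± 0.055 and cyclin B2 (Ccnb2) of 0.030 ± 0.044. Cyclin B1 (Ccnb1) was at -0.014 ± 0.00057 with its brightest probe, and at 0.089 and 0.065 with its 2 other probes, so its sign depends on the probe. The 95% interval of the brightest probe, -0.17 to 0.14, rests on the spread between pairs and does not measure that between probes.

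The kinesins and kinetochore proteins had the highest median of the roles, 0.11, with 4 of 4 means above 0. Cenpf, a kinetochore protein made in G2, was at a log2 intensity of 8.86 in the female knockout and 8.75 in the female control, and at 8.99 and 8.83 in the male pair. In each pair the knockout RNA was the higher one. The Cenpf ratio was 0.13 ± 0.031 (SD, n = 2 pairs; 95% interval -0.026 to 0.29; limma, adjusted p = 0.471). Cenpe, a kinetochore motor, was at 14.81 and 14.74 in the female pair and at 14.93 and 14.74 in the male pair, a ratio of 0.13 ± 0.084. Kif11, which pushes the spindle poles apart, had 0.19 in the male pair and was at 12.94 in both RNAs of the female pair. Kif20a, a kinesin of the central spindle, had a ratio of 0.014 ± 0.016.

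Topoisomerase II alpha (Top2a), which untangles sister chromatids, was at a log2 intensity of 14.51 in the female knockout and 14.36 in the female control, and at 14.60 and 14.49 in the male pair. The knockout was higher in each pair, with a ratio of 0.13 ± 0.026 (SD, n = 2 pairs; 95% interval -0.026 to 0.29; limma, adjusted p = 0.473). The proliferation marker Mki67, which coats mitotic chromosomes, was at 15.94 and 16.00 in the female pair and at 16.05 and 16.00 in the male pair. Its ratio of -0.0083 ± 0.081 had an interval of -0.18 to 0.16, and a second probe gave -0.043 ± 0.14. Survivin (Birc5), a subunit of the chromosomal passenger complex, was at -0.038 ± 0.020 with its brightest probe and at 0.045 and 0.0045 with 2 others.

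The mitotic kinases Plk1 and Aurka had ratios of 0.077 ± 0.074 and 0.028 ± 0.0078. The probe for Aurkb, the kinase of the passenger complex, was not well above background in any of the 4 RNAs and was not tested. Among kinases of the spindle checkpoint, Bub1b was at 0.080 ± 0.018, Bub1 at -0.017 ± 0.035 and Ttk at -0.083 ± 0.026, so the checkpoint genes lay on both sides of 0. Of the partners of the anaphase-promoting complex, the ubiquitin-conjugating enzyme Ube2c was at 0.015 in females and 0.22 in males, and its second probe gave -0.034 and 0.23. The activator Cdc20 was likewise higher in the male pair, at 0.14 against -0.044. For both genes the pairs differed by more than the mean itself, by 0.21 against 0.12 for Ube2c and by 0.19 against 0.050 for Cdc20.

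Cell cycle genes outside the set lay in the same order. The 42 other replication genes included the origin recognition complex, DNA polymerases and replication factors. With limma 0 passed (1 at an unadjusted p under 0.05, against 14.1% of all genes). Of the 42 genes, 35 had a mean below 0 (83.3%, against 51.1% of all genes), and the list median was -0.042. Of them, 20 were below 0 in both pairs and 3 were above it. Gins1, a partner of Gins2, had the largest value, -0.19 ± 0.039 (limma, adjusted p = 0.241), followed by the polymerase delta subunit Pold1 at -0.13 ± 0.10. Of 45 other mitosis genes, 0 passed with limma (0 at an unadjusted p under 0.05) and 32 had a mean above 0 and 13 below it (28.9%), with a median of 0.025. Of them, 18 were above 0 in both pairs and 6 below it. Racgap1, which acts in cytokinesis, was at 0.15 ± 0.057 (limma, adjusted p = 0.384) and the kinetochore gene Cenpk at -0.13 ± 0.029. The median of other replication genes minus that of other mitosis genes was -0.067, and was -0.11 in females and -0.054 in males. These genes were measured on the same 4 RNAs, so they are not independent evidence.

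**Figure D4:**
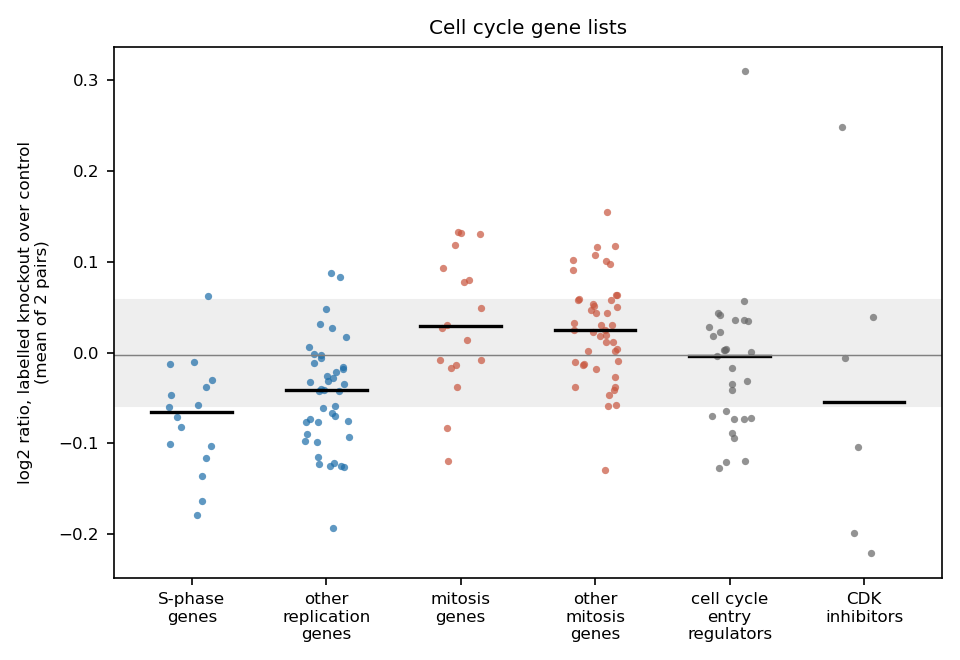
Mean log2 ratio of labelled knockout over control for each gene of 6 cell cycle lists (points) with the list median (black bar); the grey band and line are the quartiles and median of all 20629 genes tested. Medians of the replication lists lie below the line (-0.066 and -0.042) and those of the mitosis lists above it (0.029 and 0.025), and the band shows the spread of single genes, not of list medians.

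The 29 regulators of cell cycle entry included D cyclins, their kinases, E2F and DREAM complex subunits and MYC genes. With limma 0 passed (1 at an unadjusted p under 0.05, against 14.1% of all genes), and the median was -0.0041. The growth regulator Mycn had the largest value, 0.31 ± 0.0049 (SD, n = 2 pairs; 95% interval 0.15 to 0.47; limma, adjusted p = 0.0642), and the phosphatase Cdc25a was at -0.13 ± 0.080. Of 7 CDK inhibitors, 6 were tested and 0 passed with limma (2 at an unadjusted p under 0.05, against 14.1% of all genes). These 2 were Cdkn1a, which encodes p21, at 0.25 ± 0.042 (limma, adjusted p = 0.130), and Cdkn2c, named after its values were seen, at -0.20 ± 0.098 (limma, adjusted p = 0.265). Cdkn2b had a larger mean of -0.22 ± 0.24 but an interval that held 0 (-0.45 to 0.0075; limma, adjusted p = 0.377).

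Some markers of other cell types differed in the same RNAs, and their part in the values above was not tested. Of 9 smooth muscle markers tested, 7 were lower (limma), with a list median of -2.62 on the log2 scale and Actg2, Myh11, Cnn1 and Acta2 at -3.55, -3.44, -3.05 and -3.04. Of 9 ureteric mesenchyme markers, Osr1 (0.43) and Bmp4 (0.36) were higher and Foxf1 (-0.49) lower, with a list median of -0.065. Of 9 markers of neural crest, glia and neurons, Fabp7 (0.71) and Prph (0.69) were higher, with a median of 0.17. Of 7 erythroid markers, Hbb-b1 (0.43) was higher, and the list median was 0.31 (0.50 in females and 0.088 in males). For the other lists 0 passed with limma. Counts at an unadjusted p under 0.05 stand beside 14.1% of all genes tested. The median was 0.022 for 12 urothelial markers (4 at an unadjusted p under 0.05, among them the largest, Upk1b at -0.29 and Upk3a at 0.27). It was 0.15 for 7 endothelial markers, of which Kdr (0.30) and Pecam1 (0.23) reached that level, while the largest mean, that of Egfl7 (0.32), came from -0.20 in females and 0.85 in males. It was 0.12 for 6 immune markers (3 at that level, among them the largest, Lyz2 at 0.32 and Ptprc at 0.29). For 6 markers of the nephron lineage it was 0.13, and 1 of them, Pax8 (0.23), reached that level, a share close to that of all genes. The largest means of that list did not, with Six2 at -0.34 and 1.11 and Wt1 at -0.032 and 0.79 in the female and male pairs. Pecam1 and Pax8 were named after their values were seen.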

How the data were processed

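Per the submitters' processing notes, the arrays were read with the Feature Extraction software of Agilent, version 10.7.3.1. The deposited scanner files hold spot and local background intensity in 2 channels, and a processed intensity made by that software. The deposited value table holds a signed fold per probe, a score; the sources used here do not say how it was made. Here, mean intensities were corrected with normexp (offset 50) and loess, non-uniform spots were left out (186 and 223), each probe's 4 spots were averaged, and ratios were turned to labelled knockout over control. A probe was kept when over 0.5 of its spots were well above background in 1 condition on both arrays (25934 probes), and the brightest probe stood for its gene. The limma package (3.58.1, R 4.3.3) tested 20629 genes with 1 residual and 5.24 prior degrees of freedom and Benjamini-Hochberg adjustment. Levels were made comparable by quantile normalization of average intensities. RefSeq (GRCm38.p6) named 28328 probes by accession. Members, lists and motifs were chosen with earlier results of these data known. All members were named; of each other list, up to 4 called genes by size, or the 2 largest where none was called. The procedure was tested on simulated data, where it recovered the fold changes but made more false calls than the threshold's nominal share, so calls close to the threshold are less secure. The number of arrays limits the precision.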

Additional observations from a re-analysis of the deposited data

Results flagged for a closer look

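For 6 members the female and the male pair stood on opposite sides of 0, each by more than 2 standard errors of the spots. With 1 pair per sex, and dye orientation exchanged between them, these differences were not tested. The male minus female difference in log2 ratio was -0.54 for Cdk1 (0.15 in females and -0.39 in males), 0.23 for Mcm4, 0.22 for Gins2 and -0.17 for Dut. It was 0.11 for Mki67 and 0.078 for Ccna2. In all, 12 of 34 members had pairs of opposite sign, or 35.3%, against 44.2% of all genes tested. The share of all genes that also pass the limit of 2 standard errors was not counted, and spot errors measure only the spread within an array.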

How the results depend on the processing

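Under 13 alternative processings and a threshold of 0.1, 0 members were called, and the lowest adjusted p of a member in a refit was 0.268 (Cdt1, intensity trend in the variance). The S-phase median stayed below 0 and the mitosis median above 0 in every alternative. The number of genes called among all genes was 759, and 242 with median centring, 285 with the deposited value table and 1150 at the threshold of 0.1; the cause was not tested. With median centring the median of all members was 0.013 and that of mitosis genes 0.063, and 12 of 16 S-phase genes and 25 of 42 other replication genes were below 0, while the median of all genes was 0.024. With the deposited values the mitosis median was 0.060 and the S-phase minus mitosis difference -0.12. Leaving out the male and then the female pair gave medians of -0.030 and -0.0074 for all members, -0.095 and -0.039 for S-phase genes and 0.012 and 0.041 for mitosis genes, and differences of -0.11 and -0.080. These are the values of the single pair that remains. Of 34 members, 26 kept their sign under all 13 alternatives. Settings that change only the variance model cannot alter a ratio, and the changed spot and probe filters left these ratios as they were. Agreement in sign there adds nothing. With median centring 8 members changed sign. The ratios are taken within pairs, so every fit here is paired.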
